A study of Homo sapiens with 5 samples.

Results

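The genes described here are KCNH2, the voltage-gated potassium channel also called hERG, and 9 further genes of muscle excitation and calcium release: KCNN3, SCN4A, CACNA1S, CACNB1, CACNG1, STAC3, RYR1, ATP2A1 and ATP2A2. They were listed by name with the expression values of these same libraries in view, so the set was selected on the contrast between si-circVAMP3 and si-SCR that is described below. The values of these 10 genes are therefore a description and carry no test. Of the 10, 9 were found among the 13822 genes of the expression table, all 9 passed the filter on low values, and CACNG1 was not analysed here.

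RH4 is a human cell line used as a model of alveolar rhabdomyosarcoma, a tumour whose cells express part of the skeletal muscle programme. CircVAMP3 is a circular RNA made from the VAMP3 gene by back-splicing, in which the end of a later exon is joined to the start of an earlier one. The comparison asks which polyadenylated RNAs differ when this circle is knocked down. In the si-SCR group (3 libraries) cells received a control siRNA, and in the si-circVAMP3 group (2 libraries) an siRNA directed at the back-splicing junction. Both groups were RH4 cells given 30 nM siRNA with Dharmafect-1, had fresh medium after 24 h and were harvested 48 h after transfection, and all 5 libraries are biological replicates of polyadenylated RNA from total lysates. No other cell line, untransfected cells or additional siRNA enters the comparison.

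In skeletal muscle an action potential carried by the sodium channel Nav1.4 (SCN4A) spreads into the transverse tubules, where the dihydropyridine receptor, built on the pore-forming and voltage-sensing subunit encoded by CACNA1S, detects it and opens the ryanodine receptor RYR1 in the sarcoplasmic reticulum by direct mechanical coupling. The beta subunit (CACNB1) and the adaptor STAC3 are needed for this coupling, and the SERCA pumps (ATP2A1, ATP2A2) return the released calcium to the store. Potassium channels such as KCNH2 and the calcium-activated KCNN3 set the membrane potential, and both have been studied in myoblasts and in muscle that lacks its nerve.

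The siRNA and the junction it was made for are printed first because parts of the siRNA recur in several of the genes below. In the junction, which joins the end of VAMP3 exon 4 to the start of exon 3 on chromosome 1 of GRCh38 (exon 3 at chr1:7777160-7777318 and exon 4 at chr1:7778118-7778169, together 211 nt), capitals mark the 19 bases covered by the siRNA. In the strand complementary to the circle, capitals mark the seed, bases 2 to 8 from its 5′ end.
junction: tcatcatCATCATCGGTGGTGGACATaatg
siRNA strand as listed: caucaucggugguggacauuu
complementary strand: aUGUCCACcaccgaugaug

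The values are FPKM, in which the fragments of a gene are divided by its length and by the size of the library. Comparison between genes depends on that length. For CACNB1 the length behind the values was 7097 nt, against 3711 nt in its canonical transcript. For SCN4A the lengths were 8243 and 7805 nt. From the steps between possible values, the effective library sizes behind the FPKM were about 26672000, 24992000 and 24947000 fragments in si-SCR 1, 2 and 3, and 18534000 and 28798000 in si-circVAMP3 1 and 2. One library stood apart within its group. The root mean square log2 distance over 11094 genes was 0.14 between si-SCR 1 and si-SCR 2 and 0.15 between the 2 si-circVAMP3 libraries, but 0.22 and 0.19 from si-SCR 3 to si-SCR 1 and si-SCR 2. Distances between the groups were 0.30 to 0.34. In si-SCR 3 the deviation of a gene from its mean went with the GC content of its transcript across genes (Spearman rho -0.42), against 0.0675 to 0.173 in the other 4 libraries. KCNH2, whose transcript is GC-rich, is therefore also given without si-SCR 3.

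No row of the table stands for circVAMP3, so the extent of its knock-down was not analysed here. The gene that hosts it, VAMP3 (ENSG00000049245, chr1:7771296-7781432), which encodes a vesicle SNARE protein, had 36.4, 35.4 and 37.4 FPKM in the si-SCR libraries and 29.4 and 30.2 FPKM in the si-circVAMP3 libraries. Both si-circVAMP3 values lay below all si-SCR values. On the scale used throughout, log2(FPKM + 0.25) with si-SCR subtracted from si-circVAMP3, the VAMP3 difference was -0.29 ± 0.04 (SE), with an adjusted p of 0.00501 from the limma fit across 13681 genes. This scale understates the change of genes near or below the added 0.25.

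The cells carried part of the markers of their label. DES, MYOD1, MYOG, FGFR4 and TFAP2B, which mark skeletal muscle or the fusion-positive tumour, had 277 ± 24.3, 102 ± 15.7, 168 ± 16.2, 229 ± 28.7 and 24.3 ± 0.638 FPKM in si-SCR (SD, n = 3). Other markers of the list were low, with PAX3 at 2.33 ± 0.115, MYH3 at 0.706 ± 0.0408 and MYH8 at 0.278 ± 0.0361 FPKM in si-SCR. Of 26 muscle and tumour markers, 21 were tested, 5 were called lower in si-circVAMP3 and none higher, beside 3.35% and 1.36% of all 13681 tested genes, and the median difference was -0.22, against 0.00 for all genes. A gene was called when its Benjamini-Hochberg adjusted p from limma was under 0.05 and its log2 difference was at least 0.58 in size. The summed level of the list was 1514, 1489 and 1354 FPKM in si-SCR and 1278 and 1273 FPKM in si-circVAMP3, with DES the most abundant gene, and MYF5, MYF6, PAX7, ACTA1 and CKM had no row. MYOG, the transcription factor of terminal differentiation, fell by 0.76 on the log2 scale to 98.6 ± 2.89 FPKM (SD, n = 2, adjusted p 0.00158). The other called markers were CHRNG, MYL4, MYMX and TTN, with differences of -0.60, -0.60, -0.60 and -0.66, and each of these 4 lost its call without si-circVAMP3 2, at -0.56, -0.55, -0.51 and -0.56. MYL4 also lost it without si-SCR 2 and TTN without si-SCR 3, where the values lay between -0.65 and -0.55 for MYL4 and between -0.77 and -0.56 for TTN over the libraries left out. With 1 FPKM added in place of 0.25, CHRNG (-0.57) and TTN (-0.37) also lost their calls, and TTN was at -0.91 on recovered fragments. TTN lost its call with the replicate number as a replicate block too (-0.577). The part of this marker shift in the values of the channel and calcium genes was not tested. In bulk RNA, fewer cells of a type and less RNA per cell cannot be told apart.

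KCNH2 was the member with the widest gap between the groups, and the other 8 differed less, in either direction. By the rule above 1 of the 9 members was called, KCNH2, which was lower, beside 3.35% of all tested genes called lower (458 genes) and 1.36% called higher (186 genes). With the adjusted p alone, 3 members were lower (KCNH2, KCNN3 and STAC3) and 2 higher (ATP2A1 and ATP2A2), beside 14.6% (1995 genes) and 12.9% (1759 genes) of all tested genes. Since the members were chosen by this contrast, nothing is read from these counts. The median difference of the 9 members was -0.03, and that of all tested genes 0.00.

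**Figure D1:**
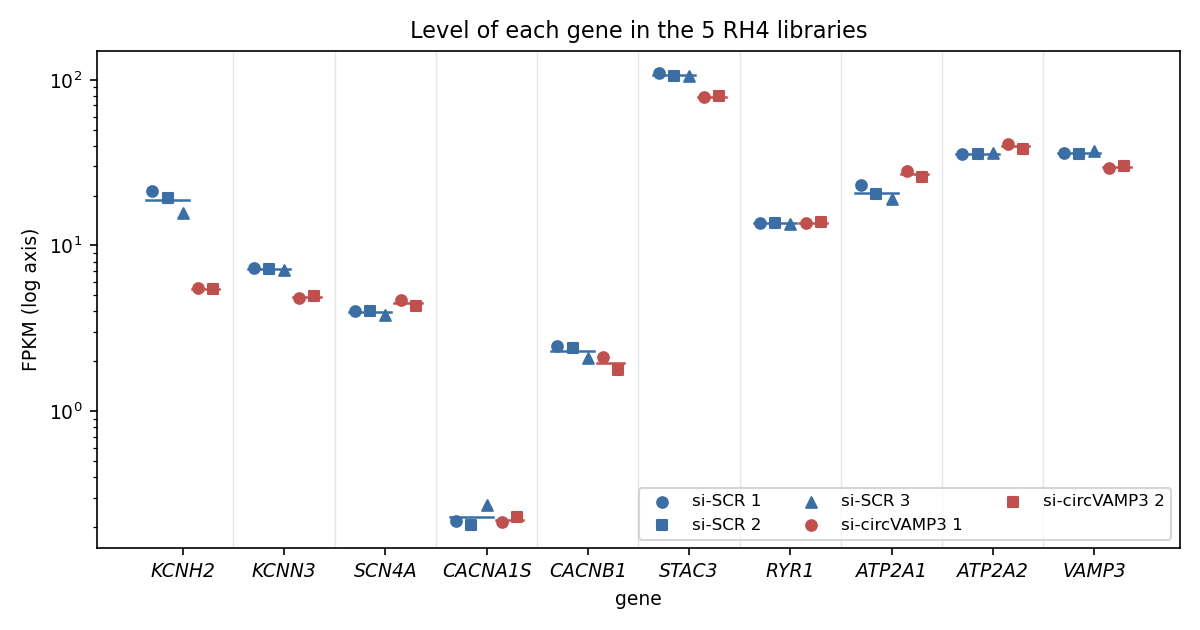
FPKM of the 9 members and of VAMP3 on a log axis, with 1 point for each library (si-SCR in blue, si-circVAMP3 in red, the marker shape giving the replicate) and a line at each group mean. KCNH2 sits between 15.6 and 21.4 FPKM in si-SCR and at 5.51 and 5.43 FPKM in si-circVAMP3, whereas the 5 values of RYR1 lie on top of each other.

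KCNH2 (ENSG00000055118, chr7:150944961-150978321 of GRCh38, minus strand) encodes the pore subunit of a potassium channel that repolarises the membrane. Its level was 21.4, 19.4 and 15.6 FPKM in si-SCR 1, 2 and 3, and 5.51 and 5.43 FPKM in si-circVAMP3 1 and 2. Both si-circVAMP3 libraries were low and close to each other, the si-SCR libraries were spread more widely with si-SCR 3 lowest, and the groups did not overlap. The means were 18.8 ± 2.9 FPKM (SD, n = 3) and 5.47 ± 0.0568 FPKM (SD, n = 2), a ratio of 0.291, and the log2 difference was -1.72 ± 0.12 (SE). These values rest on 3306, 2813 and 2265 recovered fragments in si-SCR and 593 and 908 in si-circVAMP3, so counting error is small beside the gap. Only 2 other tested genes had a log2 difference as low or lower.

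The KCNH2 transcript is GC-rich, at 66.8% GC, and its lowest si-SCR value came from the library in which GC-rich genes were low. Without si-SCR 3 the log2 difference was -1.85, and with every library adjusted for GC content it was -1.80. Over 16 alternatives it ranged from -1.85 to -1.60.

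The KCNH2 transcript holds 3 stretches with the 7 bases complementary to the seed of the complementary siRNA strand. They are shown here in capitals, read along the transcript (ENST00000262186.10) with 10 bases on each side. The first and second lie in the coding part of exon 6, at chr7:150952591-150952617 and chr7:150952573-150952599, and the third in the 3′ UTR in exon 15, at chr7:150945334-150945360.
KCNH2 exon 6, position 1783: ggacctcatcGTGGACAtcatgttcat
KCNH2 exon 6, position 1801: catgttcattGTGGACAtcctcatcaa
KCNH2 exon 15, position 3903: gctgcccagtGTGGACAcgtggctcac

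KCNN3 (ENSG00000143603, chr1:154697455-154870281, minus strand) encodes SK3, a small-conductance potassium channel opened by calcium through bound calmodulin. It had 7.31, 7.26 and 7.09 FPKM in si-SCR and 4.80 and 4.97 FPKM in si-circVAMP3. All si-SCR values were above both si-circVAMP3 values, and within each group the libraries differed little. The means were 7.22 ± 0.112 and 4.88 ± 0.124 FPKM, a ratio of 0.677, and the log2 difference was -0.54 ± 0.06 (SE), short of the size of 0.58 used for a call. Its transcript is GC-poorer than that of KCNH2, at 44.3%, and also holds 3 stretches with the same 7 bases, 1 in the coding part and 2 in the 3′ UTR in exon 8. The latter are shown, at chr1:154706620-154706646 and chr1:154704909-154704935.
KCNN3 exon 8, position 3853: ggtaaggtaaGTGGACAtggatttgtc
KCNN3 exon 8, position 5564: gggtttggtgGTGGACAcctgtagtcc

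SCN4A (ENSG00000007314, chr17:63938554-63972918, minus strand), the sodium channel of the muscle action potential, had 4.05, 4.0 and 3.80 FPKM in si-SCR and 4.69 and 4.29 FPKM in si-circVAMP3. The si-circVAMP3 values were the higher ones, by a small margin, and the groups did not overlap. The log2 difference was 0.17 ± 0.07 (SE), and leaving out each library in turn moved it between 0.11 and 0.23.

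Of the voltage sensor, CACNA1S (ENSG00000081248, chr1:201039512-201112451, minus strand) was close to the lower end of what was measured. It had 0.217, 0.205 and 0.272 FPKM in si-SCR and 0.214 and 0.230 FPKM in si-circVAMP3, from 24 to 41 fragments a library. The groups overlapped, and the log2 difference was -0.03 ± 0.11 (SE). At this depth a small difference in CACNA1S was not detectable, and the value took either sign, from -0.07 to 0.03, as single libraries were left out.

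CACNB1 (ENSG00000067191, chr17:39173453-39197702, minus strand), which encodes the beta subunit that brings the receptor to the membrane, had 2.47, 2.41 and 2.08 FPKM in si-SCR and 2.13 and 1.78 FPKM in si-circVAMP3. Here too the groups overlapped, because si-SCR 3 lay below si-circVAMP3 1. The log2 difference was -0.22 ± 0.11 (SE) and ranged from -0.34 to -0.11 as single libraries were left out.

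STAC3 (ENSG00000185482, chr12:57243453-57251188, minus strand), the adaptor that holds the voltage sensor in working order, was the most abundant member. It had 109, 105 and 105 FPKM in si-SCR and 78.4 and 79.4 FPKM in si-circVAMP3. Every si-SCR library was above both si-circVAMP3 libraries. The means were 107 ± 2.36 and 78.9 ± 0.728 FPKM, a ratio of 0.74, and the log2 difference was -0.43 ± 0.04 (SE). The STAC3 transcript searched holds none of the 7-base stretches.

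RYR1 (ENSG00000196218, chr19:38433691-38595273, plus strand), the calcium release channel itself, had 13.7, 13.6 and 13.5 FPKM in si-SCR and 13.7 and 13.8 FPKM in si-circVAMP3. The groups overlapped and all 5 libraries were nearly level. The log2 difference was 0.02 ± 0.04 (SE) from 4043 to 6360 fragments a library, and it was -0.0397 after adjustment for GC content. The RYR1 transcript holds 5 of the 7-base stretches, all in its coding part. The 3 whose surroundings lie within 1 exon are shown to set them beside those of KCNH2 and KCNN3, at chr19:38473388-38473414, chr19:38490147-38490173 and chr19:38548258-38548284.
RYR1 exon 28, position 3926: ggacggcactGTGGACAcgcccccctg
RYR1 exon 36, position 6035: ggagcgctatGTGGACAagctccaggc
RYR1 exon 89, position 12269: ccggcagatgGTGGACAtgctcgtgga

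Both calcium pumps had higher values in si-circVAMP3. ATP2A1 (ENSG00000196296, chr16:28878405-28904466, plus strand), which encodes SERCA1, the pump of fast muscle fibres, had 23.2, 20.4 and 19.0 FPKM in si-SCR and 28 and 25.8 FPKM in si-circVAMP3. The groups did not overlap, with means of 20.9 ± 2.1 and 26.9 ± 1.54 FPKM and a log2 difference of 0.37 ± 0.09 (SE). ATP2A2 (ENSG00000174437, chr12:110280756-110351093, plus strand), whose SERCA2 pump serves slow fibres and most other cells, had 35.5, 35.8 and 35.9 FPKM in si-SCR and 41.2 and 38.4 FPKM in si-circVAMP3. Again no values overlapped, and the log2 difference was 0.15 ± 0.04 (SE), between 0.10 and 0.20 with a si-circVAMP3 library left out. Neither transcript holds the 7 bases.

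**Figure D2:**
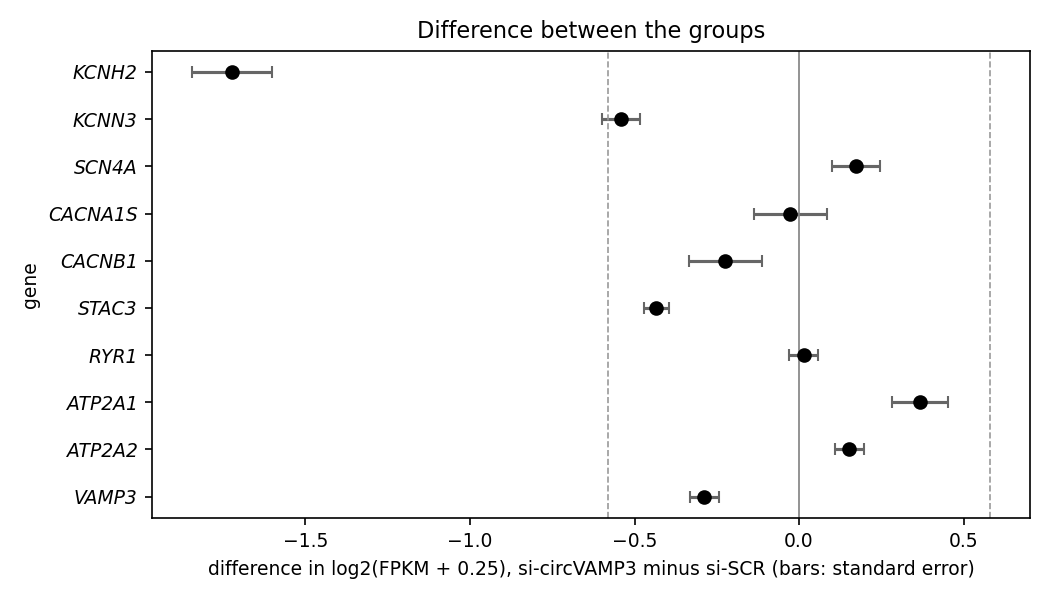
Difference in log2(FPKM + 0.25) between si-circVAMP3 (2 libraries) and si-SCR (3 libraries) for the 9 members and VAMP3, with bars of 1 standard error from limma and dashed lines at 0.58 in either direction. KCNH2 lies at -1.72, outside the lines, and KCNN3 at -0.54, next to the lower one, while ATP2A1 at 0.37 has the highest value.

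In si-SCR the members ranked, from the highest mean FPKM, as STAC3 (107), ATP2A2 (35.8), ATP2A1 (20.9), KCNH2 (18.8), RYR1 (13.6), KCNN3 (7.22), SCN4A (3.95), CACNB1 (2.32) and CACNA1S (0.231). Only ATP2A1 and KCNH2 were neighbours whose si-SCR libraries overlapped. The order of genes close in level depends on the length used for each. In si-circVAMP3 the order was the same except that RYR1 (13.7) stood above KCNH2 (5.47), and no neighbours overlapped. The release channel and the adaptor were thus well above the pore-forming sensor subunit. By mean FPKM, CACNA1S was in the lowest 4.34% of the genes in the expression table, while STAC3 was at the 97.3rd percentile.

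The genes most like KCNH2 in pattern were found by the root mean square difference of log2 values over the 5 libraries, each gene centred on its own mean. The 5 nearest of all tested genes were RYK (0.15), WDR1 (0.16), TWF1 (0.16), MPC2 (0.19) and EHBP1L1 (0.20). RYK, a Wnt co-receptor, had 9.47, 9.43 and 9.36 FPKM in si-SCR and 2.92 and 2.91 FPKM in si-circVAMP3. EHBP1L1 shared with KCNH2 its GC-rich transcript (64.0%) and a lowest si-SCR value in si-SCR 3, with 17.2, 14.6 and 12.9 FPKM against 5.70 and 5.80 FPKM. The transcripts of these 5 genes hold 2, 2, 2, 1 and 4 of the 7-base stretches, in that order. Among the other members KCNN3 came nearest to KCNH2, at rank 493 (0.59), and ATP2A1 farthest, at rank 12671 (1.03).

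The 7 bases searched were GTGGACA, the complement of the seed of the complementary strand, on the sense strand of 1 transcript for each gene. Of 13642 tested genes with a transcript, 30.2% held at least 1 match. Among genes called lower the share was 63.7% (291 of 457), and among genes called higher it was 19.5% (36 of 185). The median log2 difference was 0.03 for 9525 genes with 0 matches, -0.06 for 3085 genes with 1, -0.13 for 783 genes with 2 and -0.19 for 249 genes with 3 or more, and 1.74%, 6.03%, 9.83% and 11.2% of these genes were called lower. Longer transcripts hold more matches, with a median length of 4369 nt for genes with a match and 2742 nt for genes without. Within transcripts of 3000 to 6000 nt, 7.5% of 1666 genes with a match and 1.86% of 3174 genes without were called lower. Genes with a match in the 3′ UTR, with or without others elsewhere, had a median of -0.11 (1392 genes). Genes with matches in the coding part and none in the 3′ UTR had -0.05 (2351 genes). Their median lengths were 5185.5 and 4212 nt, so place, length and number of matches were not separated. For the seed of the strand as listed, whose complement is CGATGAT, the shares were 6.47% of all, 6.56% of lower and 4.86% of higher genes.

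By member the counts were 3 in KCNH2, KCNN3 and SCN4A, 2 in CACNA1S, 1 in CACNB1, 5 in RYR1 and 0 in STAC3, ATP2A1 and ATP2A2. The linear VAMP3 transcript holds 2, both in its coding part. Members with 3 or more matches thus ranged from -1.72 (KCNH2) to 0.17 (SCN4A). The part of these matches in the difference of any gene was not tested, the sequence of the control siRNA was not given in the sources used here, and only 1 siRNA was used against the circle, so that loss of circVAMP3 and other actions of this siRNA cannot be told apart in these libraries.

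**Figure D3:**
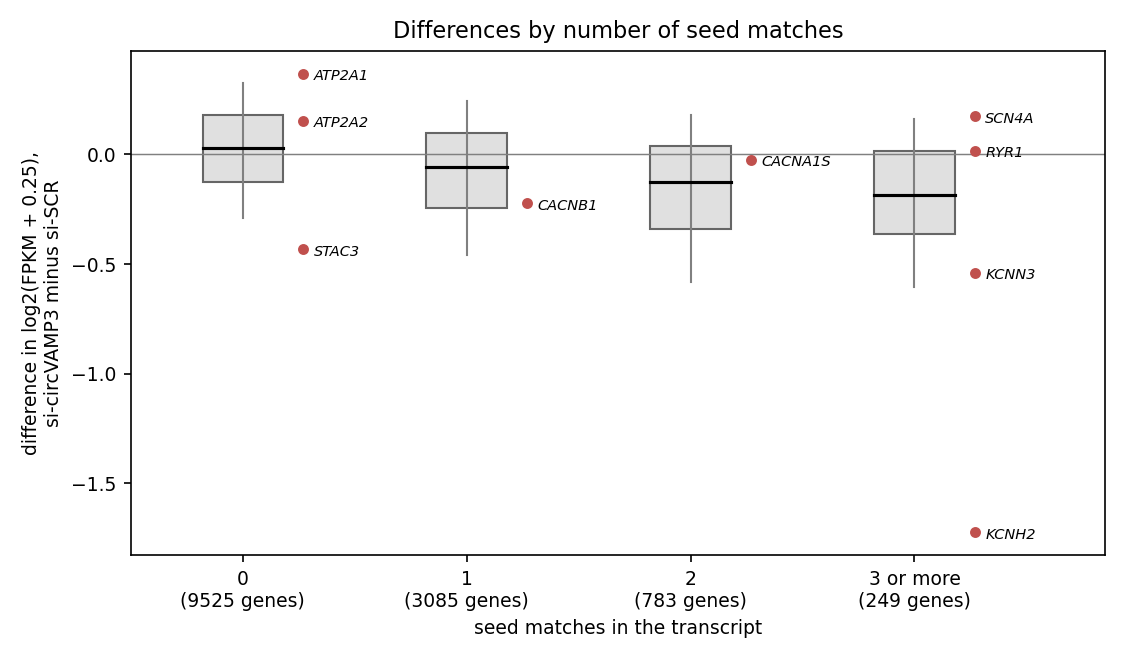
Difference in log2(FPKM + 0.25) by the number of seed matches in the transcript, for all tested genes with a transcript (box: 25th to 75th percentile, thick line: median, thin line: 10th to 90th percentile) and for the 9 members (red points). The medians go from 0.03 with 0 matches to -0.19 with 3 or more, and KCNH2, SCN4A and RYR1 in the last class lie apart from each other.

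The surroundings of the members were read from 6 wider lists of 208 genes, of which 131 had a row and 126 were tested. By the full rule 8 of the 126 were called lower and 2 higher, beside 3.35% and 1.36% of all tested genes. With the adjusted p alone 21 were lower and 13 higher, beside 14.6% and 12.9% of all tested genes. The same shares and the median of 0.00 over all genes stand beside the counts and the median of each list below. Of the 10 genes called by the full rule, 6 of the 8 lower and 1 of the 2 higher held a seed match. So did 10 of the 24 genes that passed the adjusted p alone and 36 of the 92 genes that did not pass it. Among all tested genes with a transcript, 30.2% held a match. The number of called genes depended on the treatment of low values and on the libraries: it was 4 with 1 FPKM and 16 with 0.01 FPKM added in place of 0.25, 6 among genes of at least 1 FPKM, 16 on recovered fragments, 7 without si-circVAMP3 1 and 6 without si-circVAMP3 2. With 1 FPKM added, KCNK2, SYPL2, ORAI3, PVALB and ATP2C2 were among those that lost their calls. Over all alternatives the log2 difference ran from -1.39 to -0.30 for KCNK2, from -1.68 to -0.51 for PVALB, from -1.73 to -0.26 for ATP2C2, from -1.11 to -0.59 for CACNG4, from -0.75 to -0.42 for SYPL2 and from 0.47 to 0.90 for ORAI3. In what follows, means are given for si-SCR first and si-circVAMP3 second, each with its SD over 3 and 2 libraries.

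Among the potassium channels and their subunits, 26 of 68 listed genes were tested, 1 was called lower and 1 higher, and the median difference was 0.04. KCNK2, the mechanically gated leak channel TREK-1, fell by 0.71 on the log2 scale from 0.455 ± 0.144 to 0.177 ± 0.0619 FPKM (adjusted p 0.0315). It rests on 15 to 60 fragments a library, and its call was lost without si-SCR 1, without si-SCR 3 and without either si-circVAMP3 library, with values from -0.86 to -0.55. With the replicate number as a replicate block the KCNK2 call was lost as well (-0.555). KCNJ12, the inward rectifier Kir2.2, rose by 0.79 from 2.88 ± 0.404 to 5.14 ± 0.00702 FPKM (adjusted p 0.00459) and kept its call with each library left out. KCNJ12 has a near-identical copy in the genome, so its value is uncertain. The most abundant gene of the list, KCNS3, a modifier subunit of voltage-gated channels, was at 19.3 ± 0.501 and 15.1 ± 0.457 FPKM (log2 difference -0.35, adjusted p 0.00368), and KCNMB4, a beta subunit of the large-conductance calcium-activated channel, at 7.19 ± 0.275 and 5.50 ± 0.132 FPKM (-0.37, adjusted p 0.00688).

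Of other genes in the families of KCNH2 and KCNN3, KCNH1 had 0.204 ± 0.0179 and 0.262 ± 0.0202 FPKM and KCNN1 had 1.01 ± 0.183 and 1.07 ± 0.112 FPKM, and neither passed the test (adjusted p 0.255 and 0.731). KCNH3, with means of 0.637 and 0.725 FPKM, was not called either. KCNN4 was below the filter, at 0.0461 ± 0.0236 and 0.0312 ± 0.000777 FPKM. KCNH6 and KCNH7, the closest relatives of KCNH2, had no row, nor had KCNN2, KCNJ2 and KCNE2, a small subunit that can associate with the KCNH2 channel.

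Of the other dihydropyridine receptor and voltage-gated calcium channel subunits, 9 of 25 were tested, 1 was called lower and 0 higher, and the median difference was -0.07. CACNG4, an auxiliary gamma subunit, fell by 0.90 on the log2 scale from 1.71 ± 0.113 to 0.80 ± 0.0618 FPKM (adjusted p 0.00161) and was called in every alternative. CACNA2D1, which encodes the alpha-2-delta subunit of the muscle receptor and was the most abundant gene of the list, was at 4.79 ± 0.242 and 3.86 ± 0.17 FPKM (-0.29, adjusted p 0.0267). CACNG6 was at 3.80 ± 0.429 and 5.28 ± 0.3 FPKM (0.45, adjusted p 0.0186) and CACNA1H, a low-voltage-activated calcium channel, at 2.67 ± 0.328 and 2.42 ± 0.0164 FPKM (-0.12, adjusted p 0.429). CACNB3 was level at 2.00 ± 0.0466 and 2.02 ± 0.187 FPKM, and CACNA1C and CACNB2 had no row.

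Triad, junctional sarcoplasmic reticulum and release channel genes were tested in 26 of 29 cases, with 1 called lower, 0 higher and a median of 0.03. SYPL2, which encodes the triad protein mitsugumin-29, fell by 0.60 on the log2 scale from 1.96 ± 0.409 to 1.19 ± 0.0854 FPKM (adjusted p 0.0347). Its call was lost without si-SCR 1, without si-SCR 3 and without either si-circVAMP3 library, with values from -0.75 to -0.47 over the libraries left out. The SYPL2 call was also lost with the replicate number as a replicate block (-0.570). FKBP1A, whose product binds the ryanodine receptor, was the most abundant, at 73.4 ± 3.75 and 80.9 ± 2.3 FPKM (0.14, adjusted p 0.0897). SRL, the calcium-binding sarcalumenin of the sarcoplasmic reticulum, was at 56.4 ± 2.68 and 39.8 ± 0.788 FPKM (-0.50, adjusted p 0.00136), and BIN1, which shapes transverse tubules, at 35.2 ± 0.912 and 45.1 ± 0.939 FPKM (0.35, adjusted p 0.00226). JPH2 (-0.42) and DYSF (0.54) also passed the adjusted p alone. The paralogue RYR3 had 2.02 ± 0.285 and 2.08 ± 0.0936 FPKM (adjusted p 0.82), and RYR2, TRDN and CASQ1 had no row.

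Calcium pumps, exchangers, SERCA regulators and store-operated entry genes were tested in 28 of 34 cases, with 2 called lower, 1 higher and a median of -0.02. ORAI3, a plasma membrane calcium entry channel, rose by 0.73 from 0.768 ± 0.0924 to 1.44 ± 0.183 FPKM (adjusted p 0.00693), a call lost without si-circVAMP3 1 (0.62). PVALB, the calcium buffer parvalbumin, fell by 1.05 on the log2 scale from 0.807 ± 0.215 to 0.263 ± 0.137 FPKM (adjusted p 0.0163), from 5 to 26 fragments a library, and lost its call without si-circVAMP3 2 (-0.77). ATP2C2, a secretory pathway calcium pump, fell by 0.70 from 0.297 ± 0.0219 to 0.0863 ± 0.0182 FPKM (adjusted p 0.00501). CALR, the luminal calcium-binding chaperone and the most abundant gene, was at 237 ± 4.16 and 223 ± 5.97 FPKM (-0.09, adjusted p 0.149), CALU at 94.5 ± 1.34 and 77.5 ± 2.31 FPKM (-0.29, adjusted p 0.00369) and the plasma membrane pump ATP2B1 at 56.0 ± 1.12 and 55.7 ± 1.03 FPKM (-0.01, adjusted p 0.879). The third SERCA gene, ATP2A3, had 3.55 ± 0.735 and 3.94 ± 0.266 FPKM (adjusted p 0.514), and sarcolipin (SLN) had no row.

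Sodium and chloride channels and sodium-potassium pump subunits were tested in 19 of 32 cases, with 2 called lower, 0 higher and a median of 0.07. SCN3B, a beta subunit of voltage-gated sodium channels, fell by 1.00 on the log2 scale from 3.13 ± 0.372 to 1.44 ± 0.0984 FPKM (adjusted p 0.00179) and was called in every alternative. Among the most abundant genes were ATP1B3, a beta subunit of the pump, at 49.6 ± 0.497 and 56.8 ± 1.91 FPKM (0.19, adjusted p 0.0145), and CLCN5, a chloride-proton exchanger of endosomes, at 39.2 ± 2.01 and 31.0 ± 0.972 FPKM (-0.34, adjusted p 0.00641). The muscle chloride channel gene CLCN1 had no row.

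Chaperones and ubiquitin ligases known to act on the KCNH2 protein were tested in 18 of 20 cases, with 1 called lower, 0 higher and a median of 0.04. DNAJA1, a J-domain co-chaperone, fell by 0.63 on the log2 scale from 135 ± 2.57 to 87.1 ± 0.321 FPKM (adjusted p 0.00023) and was called in every alternative. Its transcript holds 1 seed match, in the 3′ UTR. HSP90AB1 was at 1211 ± 14.6 and 1334 ± 13.8 FPKM (0.14, adjusted p 0.066), HSP90AA1 at 418 ± 10.9 and 455 ± 6.55 FPKM (0.12, adjusted p 0.0783) and HSPA8 at 374 ± 4.11 and 331 ± 17.9 FPKM (-0.18, adjusted p 0.0335). NEDD4L, a ubiquitin ligase for membrane channels, was at 2.86 ± 0.081 and 2.09 ± 0.0605 FPKM (-0.41, adjusted p 0.00931).

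**Figure D4:**
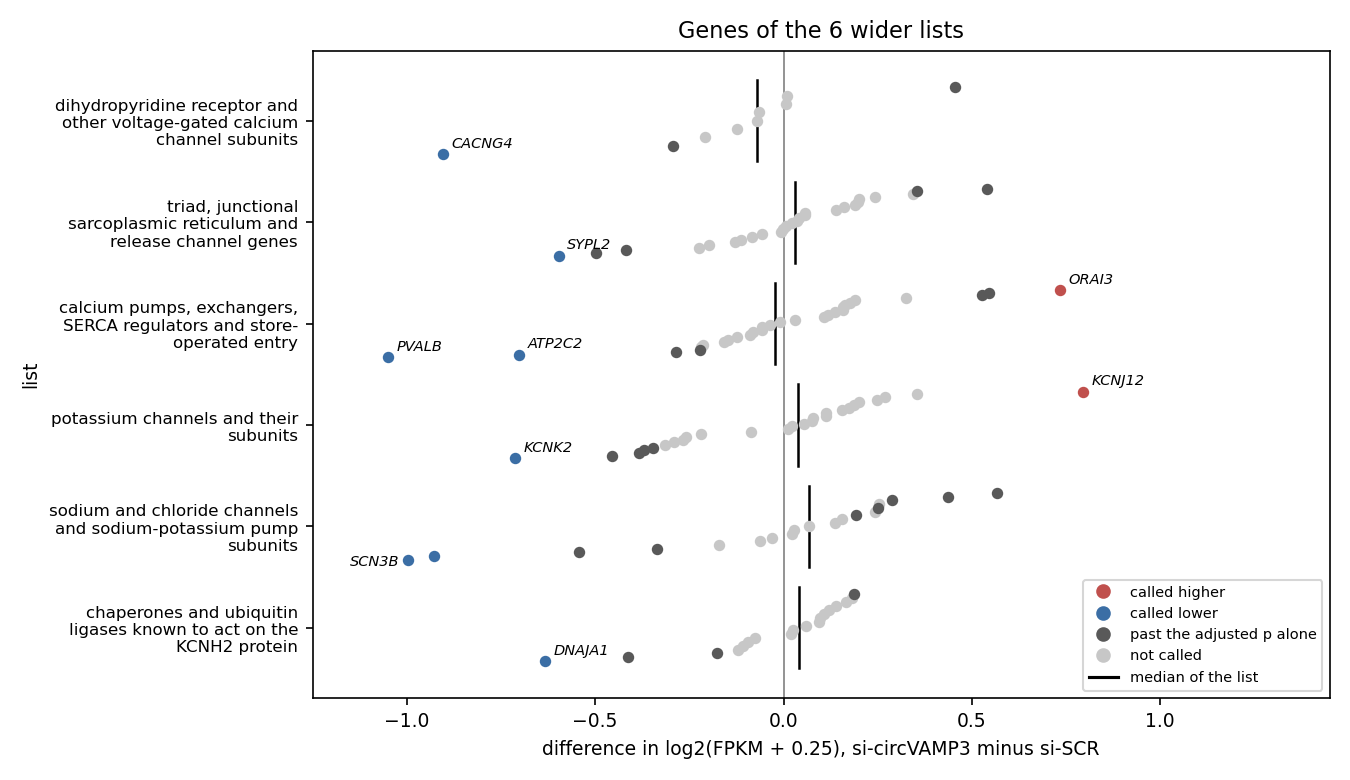
Difference in log2(FPKM + 0.25), si-circVAMP3 minus si-SCR, for the 126 tested genes of the 6 wider lists, with 1 point for each gene, ordered by value within its list, and a vertical line at the list's median. The 8 genes called lower are in blue and the 2 called higher in red, with names for most of them, and the list medians lie between -0.07 and 0.07.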

How the data were processed

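Per the labels and the study's methods, the authors prepared stranded polyadenylated RNA libraries (TruSeq Stranded mRNA kit), trimmed reads with Trimmomatic, aligned them to GRCh38 with STAR 2.5.2b, counted them on the Ensembl 99 annotation with HTSeq and tested them with edgeR after a filter on low CPM; the table also holds genes of very few fragments. The authors deposited FPKM for 13822 genes in 5 libraries; 13237 identifiers matched a symbol. FPKM are not counts, so limma 3.58.1 (R 4.3.3, lmFit and eBayes with trend, two-sided) was run on log2(FPKM + 0.25) for 13681 genes with a mean of at least 0.1 FPKM, with no replicate block. P-values were adjusted by the Benjamini-Hochberg method over all tested genes, and the study's limits of 0.05 and 0.58 were kept. The fit was tested on simulated data.

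Depth came from the steps of the FPKM values, and 93.5% of genes gave whole fragments in every library. Of these, 9544 did so within 0.02 at the annotation length. For 3377 the length was searched until the values came out whole, with a wider limit for genes of many fragments. P-values rest on the spread between these few libraries, moderated for each gene by the variance trend over all tested genes. Transcripts, exons and sites are from GENCODE 44 (GRCh38), 1 canonical transcript for each gene.

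Named genes were all members, every called gene (up to 6) and the 3 most abundant of each wider list, genes of the members' subfamilies, VAMP3, and the 5 genes nearest to KCNH2; JPH2, DYSF, NEDD4L and marker genes were named after their values were seen. Some genes and 1 sequence that these rules name are not reported here. The members, the 6 wider lists and the 8 marker lists (skeletal muscle and tumour, cardiac, smooth muscle, fibroblast, epithelial, endothelial, immune, neuronal) were chosen with earlier results of these data known. Alternatives changed the pseudocount, filter, scaling, variance model, threshold, replicate block and libraries; GC adjustment and limma voom on recovered fragments were added after seeing the data.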

Additional observations from a re-analysis of the deposited data

How the results depend on the processing

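The number of genes called was 186 higher and 458 lower. It was 91 and 243 with 1 FPKM added in place of 0.25, and 1759 and 1995 with the adjusted p alone, which by construction admits smaller differences. All other alternatives kept both counts within 1.5 times, from 135 to 235 higher and from 394 to 466 lower with single libraries left out, and 242 and 573 with limma voom on recovered fragments. For the 6 wider lists (10 called), the count was 4 with 1 FPKM and 16 with 0.01 FPKM added, 6 with a mean of at least 1 FPKM, where fewer genes are tested, 16 on recovered fragments, 34 with the adjusted p alone, and 6 to 10 with single libraries left out. KCNH2 kept its direction throughout (-1.85 to -1.60, and -1.85 to -1.63 with single libraries left out). KCNN3 was -0.48 with 1 FPKM added and -0.51 after GC adjustment, STAC3 -0.46 and RYR1 -0.0397 after GC adjustment, and ATP2A2 0.10 to 0.20 with single libraries left out; the cause was not tested. With a lone si-circVAMP3 library, it is assumed to vary like the si-SCR group. With the replicate number as a replicate block the counts were 178 higher, 447 lower and 9 of the wider lists, and KCNH2 was at -1.85. The numbers are shared by 2 pairs, whose deviations from the group means correlated at -0.11 and -0.0219 across genes. The deviations of the 2 si-circVAMP3 libraries mirror each other, so these values cannot show whether libraries of 1 number share an experiment. Low genes are limited by depth: CACNA1S and PVALB rest on 5 to 41 fragments a library.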

Other observations

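Markers of other tissues were read from the remaining 7 lists. Of 9 cardiac markers, NKX2-5 alone had a row, at 18.03 ± 3.05 FPKM in si-SCR (SD, n = 3) and 15.4 ± 1.37 FPKM in si-circVAMP3 (SD, n = 2), and was not called. Of 6 smooth muscle markers, 3 had a row and 1 was tested, and none was called; the summed level was 4.45 to 6.44 FPKM, mostly SMTN. Of 9 fibroblast markers, 5 were tested and none passed the full rule, with a summed level of 29.0 to 35.7 FPKM, mostly COL3A1. Of 6 epithelial markers, KRT8 alone had a row and was called higher, from 0.263 ± 0.0507 to 0.616 ± 0.0498 FPKM (log2 difference 0.76, limma adjusted p 0.00613), a call lost without si-circVAMP3 1 (0.70) and with 1 FPKM added in place of 0.25 (0.36); over all alternatives its value lay between 0.36 and 1.22, the highest on recovered fragments. Of 5 endothelial markers, PECAM1 was at 0.0955 ± 0.0227 and 0.128 ± 0.0355 FPKM, and of 7 neuronal markers, TUBB3 was at 0.237 ± 0.104 and 0.247 ± 0.00512 FPKM, and neither was called. None of 6 immune markers had a row. The part of these levels in the values of the channel genes was not tested.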
